A study of Mus musculus with 31 samples.

Results

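Ribosome biogenesis factors are the proteins that build the 40S and 60S ribosomal subunits in the nucleolus but are not part of the finished ribosome. A set of 49 of them was followed in mouse uterus, each by the probe whose gene name in the array annotation is that of the factor, with the brightest tested probe where there were several. Of the 49 genes, 48 could be tested among 26900 genes of the whole array, and 47 of the 48 were well above background on 31 of 31 arrays. Npm3, the dimmest, was so on 25 arrays, and Utp18, a WD-repeat protein of the small-subunit processome, was so on 7 arrays and was not tested. The arrays hold total RNA of uterus from 8 groups of mice. All mice were ovariectomised at 4 weeks of age and kept for a further 3 weeks, and uteri were taken 6 h after 17β-estradiol (E2, 8 µg/kg) in castor oil, given under the skin, or after the oil alone (placebo, 0 µg/kg). The groups were AF2 KO E2 (3 arrays), AF2 KO placebo, AF2 WT E2 and AF2 WT placebo on the C57BL6/J background, and MISS KO E2, MISS KO placebo, MISS WT E2 and MISS WT placebo on the C57BL6/N background, with 4 arrays each. From knowledge outside the labels, AF2 KO mice carry an estrogen receptor α (ERα, gene Esr1) without activation function 2, the hormone-dependent surface that recruits coactivators, and MISS KO mice carry an ERα that cannot be palmitoylated and so does not reach the plasma membrane. Both alterations are in the germ line, so every cell of the uterus carries them. The comparisons ask how much of the E2 response of the uterus depends on the nuclear and on the membrane actions of ERα.

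Ribosome production starts with RNA polymerase I, which makes one long precursor of the 18S, 5.8S and 28S rRNAs. Small nucleolar ribonucleoproteins (snoRNPs) modify the precursor, the small-subunit processome folds and cuts its 18S part, and separate sets of assembly factors carry the pre-40S and pre-60S particles to the cytoplasm. In the rodent uterus, estrogen is known to raise RNA and protein synthesis and nucleolar activity within hours, ahead of cell division in the epithelium.

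Levels are log2 values of the background-subtracted array signal relative to the 75th percentile of the same array, so each level is relative to the other transcripts of its array. That percentile was 531.8 to 1033.4 intensity units. Between 61.8 and 77.1% of probes gave a signal well above background, and saturation touched 0 spots. Precision is limited by how many arrays there are. Each of the 4 slides held 1 array of every group, except that slide 2 held no AF2 KO E2 array. Esr1, the altered gene of both lines, had mean levels of 2.77 ± 0.12 (SD, n = 3) in AF2 KO E2 and 2.65 ± 0.12 to 3.26 ± 0.12 (SD, n = 4 each) in the other groups, and the files do not say whether its probes lie in the altered parts, so they check no genotype. It was lower in AF2 KO placebo than in AF2 WT placebo, with a log2 difference of −0.49 ± 0.13 (SE, limma, adjusted p = 0.0117), and lower with E2 than with placebo in MISS WT, with a log2 change of −0.39 ± 0.13 (SE, adjusted p = 0.00956). Markers of epithelium (12 genes), smooth muscle (8 genes) and stroma (11 genes) were all tested, with mean levels per array of 1.88 to 2.90, 5.01 to 6.41 and 3.53 to 4.92 across the groups. Of 6 markers of ovary and oviduct, Amh and Cyp11a1 were not above background on every array of any group. The other 4, Inha, Star, Ovgp1 and Foxj1, were tested, with mean levels per array of −2.43 to −1.26 across the groups. In whole uterus, fewer cells of a type and less RNA per cell cannot be told apart. Nothing in the labels says how arrays relate to litters or days, so p-values measure the spread between these arrays.

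The factors rose together with E2 in AF2 WT, MISS KO and MISS WT mice, and none was called in AF2 KO mice. Averaged over the 48 genes, the level in the AF2 KO E2 arrays was 1.21, 1.20 and 1.19, against 1.17, 1.18, 1.17 and 1.16 in AF2 KO placebo. In AF2 WT it was 3.12, 3.25, 3.21 and 3.16 with E2, against 1.33, 1.23, 1.35 and 1.27 with placebo. In MISS KO it was 3.22, 3.13, 3.06 and 3.18 with E2, against 1.33, 1.33, 1.28 and 1.24 with placebo. The 3 AF2 KO E2 arrays therefore lay within 0.05 of the AF2 KO placebo arrays on the log2 scale, whereas the E2 and placebo arrays of AF2 WT and MISS KO were far apart. These averages include the dim Npm3, whose levels ran from −8.17 to −4.15 over the AF2 KO arrays. The exact bound and the order of the AF2 KO arrays therefore depend partly on that gene. MISS WT gave 3.29, 3.25, 3.28 and 3.11 with E2, against 1.25, 1.23, 1.26 and 1.27 with placebo, and so split the same way as MISS KO.

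**Figure D1:**
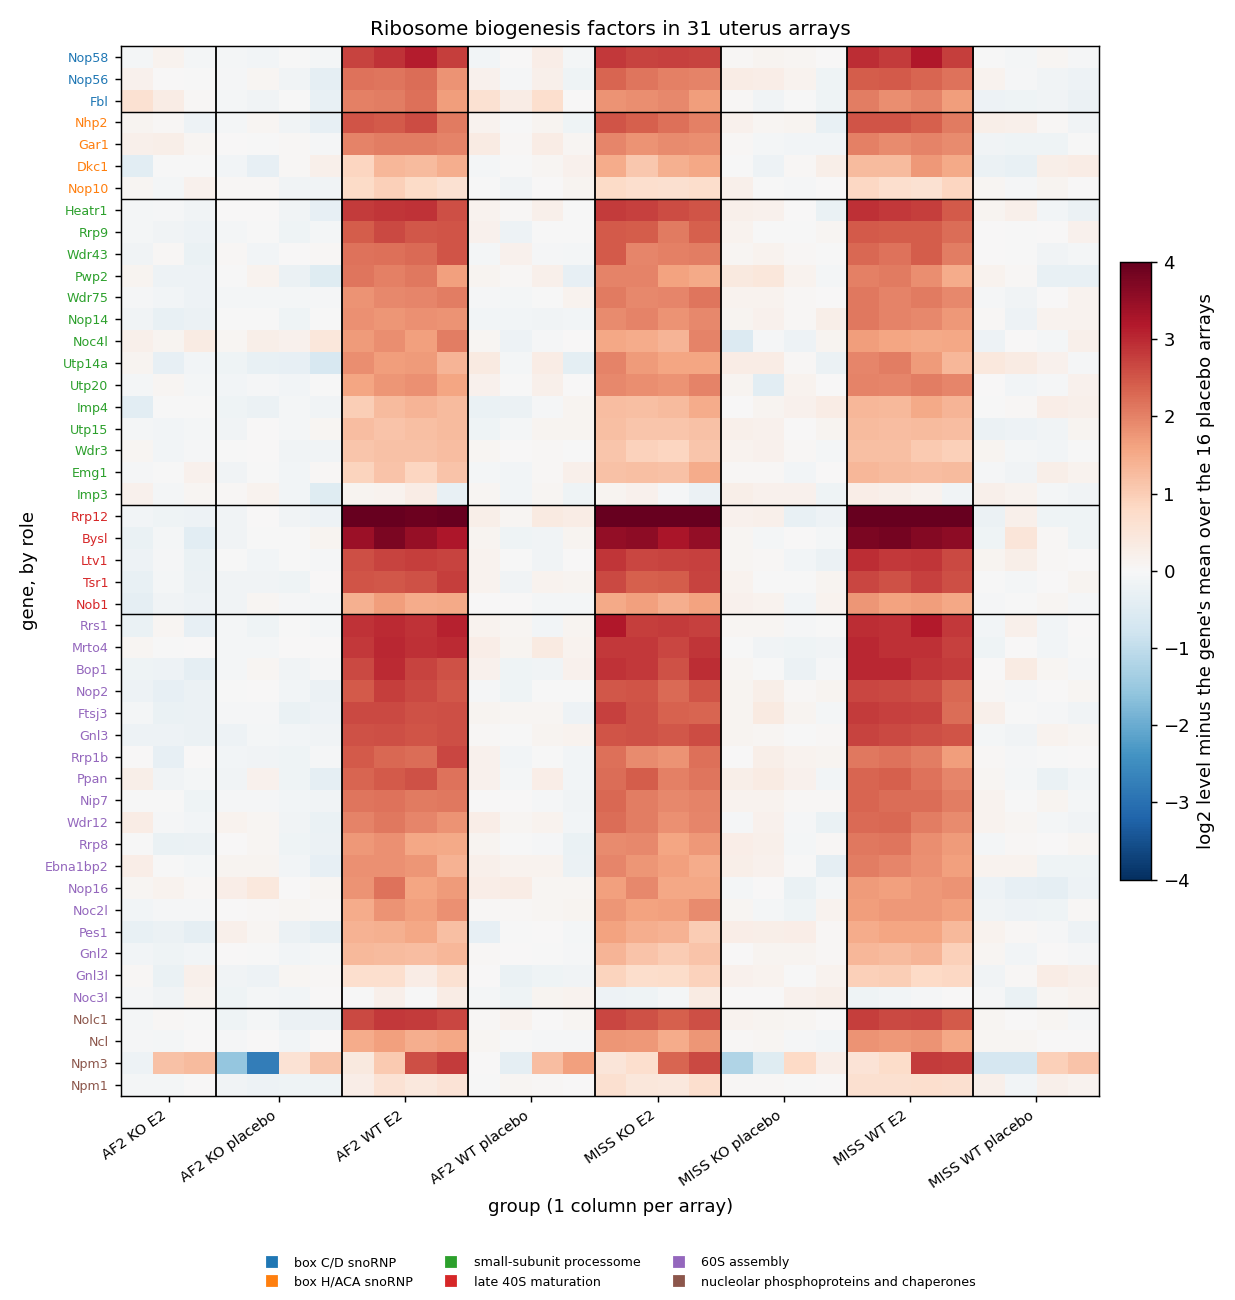
Log2 level of each tested ribosome biogenesis factor (rows, ordered and coloured by role) in each of 31 arrays (columns, by group), minus the mean of that gene over the 16 placebo arrays. Red columns fill the E2 groups of AF2 WT, MISS KO and MISS WT, the 3 AF2 KO E2 columns are as pale as placebo, and Imp3, Noc3l and Npm3 are the rows without a clear split.

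Calls below are genes with an adjusted p under 0.05 (limma, Benjamini-Hochberg over all 26900 genes). In AF2 KO, 0 of 48 factors were called with E2 in limma, where 4.00% of all genes were called in either direction, and 4 factors, Fbl, Gar1, Nob1 and Nolc1, had an unadjusted p under 0.05, where 17.4% of all genes had. The median was 0.01, with 25 changes positive and 23 negative, and a range of −0.24 to 1.41, the highest being Npm3. The 95% confidence interval of the change lay within 1.5-fold of no change, either way, for 45 of the 48, and for 54.6% of all genes. The exceptions among the factors were Fbl, Utp14a and Npm3. With slide as a block, 2 factors were called higher in AF2 KO, Fbl at 0.44 (adjusted p = 0.00285) and Npm3 at 1.08 (adjusted p = 0.0262), where 9.05% of all genes were. With arrays scaled to their median in place of the 75th percentile, 7 were called lower, where 7.05% of all genes were, and that scaling also moved the median of all genes in AF2 KO to −0.13 from 0.07. Without AF2 KO E2 replicate 3, or without AF2 WT placebo replicate 4, 1 factor was called.

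In AF2 WT, 45 of 48 factors were called higher with E2, 42 of them by 2-fold or more, and 0 lower, where 26.7% of all genes were called higher. The median log2 change was 1.86, with a range of 0.09 to 3.86, against −0.09 over all genes. In MISS KO, 45 were called higher (28.9% of all genes were) and 41 by 2-fold or more, with a median of 1.90, against 0.00 over all genes. In MISS WT, 45 were called higher (33.6% of all genes were) and 42 by 2-fold or more, with a median of 2.0, against 0.13 over all genes. Of all 26900 genes, 2844, 3299 and 3944 were called higher by 2-fold or more in AF2 WT, MISS KO and MISS WT. The 3 factors not called in these genotypes were Imp3, Noc3l and Npm3. Every E2 array lay above every placebo array for 45 factors in AF2 WT, 45 in MISS KO and 45 in MISS WT, where 23.1%, 26.8% and 29.8% of all genes did so. The factors' median percentile among all genes by log2 change was 96.8 in AF2 WT and 96.3 in MISS WT.

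**Figure D2:**
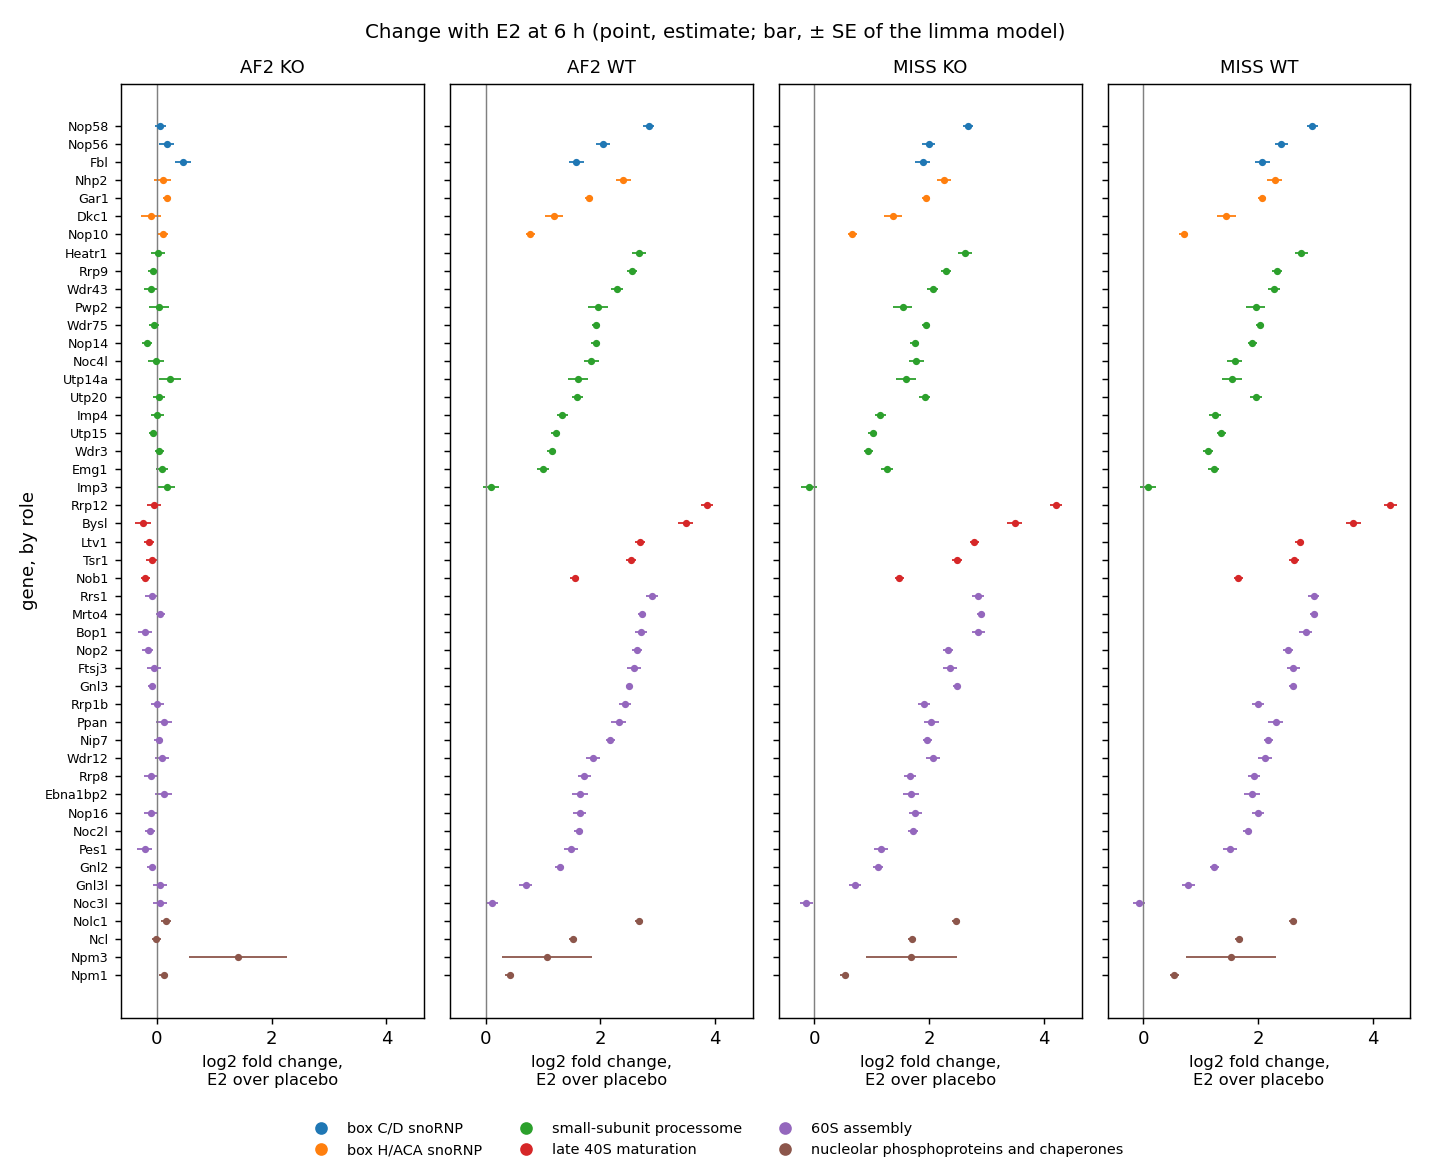
Log2 fold change with E2 over placebo (point) ± SE of the limma model (bar) for the 48 factors, by role, in AF2 KO, AF2 WT, MISS KO and MISS WT. Points in AF2 KO have a median of 0.01 and a range of −0.24 to 1.41, the highest being the dim Npm3. The other panels have medians of 1.86 to 2.0, led by Rrp12 and Bysl.

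Because the factors moved together, the promoters of the most changed of them are shown. RefSeq promoter entries (build GRCm38.p6) existed for 42 of the 49 genes, with 47 windows, and those of the 5 genes with the largest change in AF2 WT that had one are printed as the 250 bases before the annotated start, 5′ to 3′ on the strand of the gene. Capitals mark matches, on either strand, to the motifs spelled out in the next paragraph, and matches may overlap.
Bysl (chr17:47611493-47611742, minus strand): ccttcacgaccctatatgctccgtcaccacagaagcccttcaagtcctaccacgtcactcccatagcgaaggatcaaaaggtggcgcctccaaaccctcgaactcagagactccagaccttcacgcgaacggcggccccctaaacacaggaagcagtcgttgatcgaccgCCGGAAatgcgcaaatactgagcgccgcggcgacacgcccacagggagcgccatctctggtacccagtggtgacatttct
Nop58 (chr1:59684756-59685005, plus strand): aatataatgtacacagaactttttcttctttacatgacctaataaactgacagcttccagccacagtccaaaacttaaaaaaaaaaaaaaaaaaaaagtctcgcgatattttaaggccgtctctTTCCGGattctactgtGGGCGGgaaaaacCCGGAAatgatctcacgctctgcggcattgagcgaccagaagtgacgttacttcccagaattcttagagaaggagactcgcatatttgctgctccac
Mrto4 (chr4:139352577-139352826, minus strand): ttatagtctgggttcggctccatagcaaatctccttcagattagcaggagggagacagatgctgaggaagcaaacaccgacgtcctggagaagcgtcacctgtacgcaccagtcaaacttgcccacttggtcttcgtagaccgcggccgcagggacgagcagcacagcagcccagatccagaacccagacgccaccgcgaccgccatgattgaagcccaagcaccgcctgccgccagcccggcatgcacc
Bysl holds 1 ETS core, Nop58 holds 2 ETS cores and 1 GC box, and Mrto4 holds none of these letters. Rrp12 and Rrs1 are named only.

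Over the 47 windows, an ETS core, CCGGAA, was present in 18, or 38.3%, against 17.5% of 15641 windows of tested genes and 12% of all 32851 windows in the table. A GC box, GGGCGG, was present in 30, or 63.8%, against 50.2% of windows of tested genes and 32.7% of all windows. An E-box, CACGTG, the site of Myc-type factors, was present in 3, or 6.38%, those of Imp4, Nop2 and Utp18, against 7.37% of windows of tested genes and 6.02% of all windows. The palindromic estrogen response element, GGTCA and 3 bases of any kind and then TGACC, was present in 0 of 47 windows, against 0.032% of windows of tested genes and 0.0639% of all windows. A TATA box, TATAAA, was present in 3, or 6.38%, against 8.52% of windows of tested genes and 12.4% of all windows. These are letter matches in a short window, with no test, and the windows of the factors hold a median of 17 CpG, against 13 in windows of tested genes.

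The box C/D snoRNP proteins Nop58, Nop56 and Fbl, which guide and carry out 2′-O-methylation of rRNA, rose in 3 of 3 cases in AF2 WT, MISS KO and MISS WT. Nop58, a core scaffold of the particle (probe on chromosome 1, 59768230 to 59768289, mm9), had levels of 1.41, 1.62 and 1.43 in AF2 KO E2, against 1.41, 1.37, 1.48 and 1.43 in AF2 KO placebo. In AF2 WT its levels were 4.20, 4.37, 4.62 and 4.26 with E2, against 1.40, 1.52, 1.76 and 1.41 with placebo. The AF2 WT groups did not overlap and those of AF2 KO did, with changes on the log2 scale of 0.06 ± 0.10 (SE, adjusted p = 0.827) in AF2 KO and 2.84 ± 0.09 (adjusted p = 1.44e-18), or 7.16-fold, in AF2 WT. In the MISS line Nop58 had 4.31, 4.20, 4.23 and 4.19 in MISS KO E2, against 1.55, 1.60, 1.56 and 1.51 in MISS KO placebo, and 4.46, 4.30, 4.70 and 4.27 in MISS WT E2, against 1.48, 1.42, 1.56 and 1.46 in MISS WT placebo. MISS KO and MISS WT thus overlapped under E2, and the changes were 2.68 ± 0.09 in MISS KO and 2.95 ± 0.09 in MISS WT (limma, both called).

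Nop56, the partner scaffold (probe on chromosome 2, 130104982 to 130105041), had 3.79, 3.63 and 3.61 in AF2 KO E2, against 3.59, 3.71, 3.48 and 3.27 in AF2 KO placebo, and 5.81, 5.76, 5.85 and 5.41 in AF2 WT E2, against 3.80, 3.59, 3.82 and 3.46 in AF2 WT placebo. Its change was 0.17 ± 0.13 in AF2 KO (adjusted p = 0.571), and it rose by 2.04 ± 0.12 in AF2 WT (adjusted p = 9.75e-14). MISS KO gave 5.94, 5.77, 5.65 and 5.62 with E2, against 3.92, 3.88, 3.76 and 3.45 with placebo, and MISS WT gave 6.05, 6.08, 5.95 and 5.81 with E2, against 3.77, 3.58, 3.49 and 3.41 with placebo. Its E2 groups in the MISS line overlapped, since the highest MISS KO E2 value was above the lowest MISS WT E2 value.

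Fbl, the methyltransferase fibrillarin (probe on chromosome 7, 28964229 to 28964288), was the member with the largest difference between the wild types under placebo. It had 2.68, 2.35 and 2.10 in AF2 KO E2, against 1.97, 1.92, 2.04 and 1.78 in AF2 KO placebo. Each E2 array thus lay above each placebo array, by little, as for 11.7% of all genes. The change in AF2 KO was 0.45 ± 0.14, not called at an adjusted p of 0.0773, and within slides 1, 3 and 4 it was 0.71, 0.31 and 0.32. In AF2 WT the levels were 4.08, 4.10, 4.25 and 3.73 with E2, against 2.66, 2.37, 2.73 and 2.09 with placebo, a change of 1.58 ± 0.13 (adjusted p = 7.12e-11). MISS KO had 3.86, 3.93, 3.98 and 3.74 with E2, against 2.10, 1.92, 2.04 and 1.88 with placebo, and MISS WT had 4.12, 3.91, 4.05 and 3.72 with E2, against 1.85, 1.90, 1.93 and 1.82 with placebo. The Fbl change in AF2 KO was called with normexp background correction (0.41, adjusted p = 0.0393), with quantile normalization (0.45, adjusted p = 0.0417), with the authors' matrix values (0.46, adjusted p = 0.0237) and with slide as a block. The difference of the responses, AF2 KO minus AF2 WT, was −1.13 ± 0.19, adjusted p = 2.16e-05.

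The box H/ACA proteins, which make the pseudouridines of rRNA and also serve telomerase, rose in 4 of 4 cases in AF2 WT, MISS KO and MISS WT, and Nop10 did so by less than 2-fold. Nhp2, an RNA-binding core protein (probe on chromosome 11, 51436872 to 51436931), had 3.55, 3.48 and 3.26 in AF2 KO E2, against 3.38, 3.54, 3.30 and 3.11 in AF2 KO placebo, and 5.96, 5.89, 6.06 and 5.54 in AF2 WT E2, against 3.58, 3.43, 3.56 and 3.28 in AF2 WT placebo. Its change in AF2 WT was 2.40 ± 0.13 (adjusted p = 3.85e-14), and the AF2 KO groups overlapped. MISS KO gave 5.95, 5.83, 5.64 and 5.47 with E2, against 3.62, 3.52, 3.57 and 3.14 with placebo, and MISS WT 5.96, 5.96, 5.83 and 5.54 with E2, against 3.67, 3.64, 3.50 and 3.32 with placebo. Those are changes of 2.26 ± 0.13 in MISS KO and 2.29 ± 0.13 in MISS WT, both called.

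Gar1, a core protein needed for the catalytic step (probe on chromosome 3, 129527855 to 129527914), had 3.54, 3.57 and 3.42 in AF2 KO E2, against 3.37, 3.32, 3.38 and 3.31 in AF2 KO placebo, and 5.32, 5.38, 5.38 and 5.33 in AF2 WT E2, against 3.68, 3.40, 3.66 and 3.44 in AF2 WT placebo. In AF2 KO the E2 arrays lay above the placebo arrays, as for 11.7% of all genes, with a change of 0.17 ± 0.07 (adjusted p = 0.23). In AF2 WT Gar1 rose by 1.81 ± 0.07 (adjusted p = 1.66e-17). MISS KO levels were 5.31, 5.13, 5.23 and 5.22 with E2, against 3.39, 3.27, 3.23 and 3.23 with placebo, and MISS WT levels were 5.36, 5.23, 5.33 and 5.24 with E2, against 3.22, 3.17, 3.18 and 3.32 with placebo. Nop10, the smallest core protein (probe on chromosome 2, 112102712 to 112102771), had 3.19, 3.05 and 3.30 in AF2 KO E2, against 3.18, 3.16, 2.98 and 2.97 in AF2 KO placebo, and 3.88, 4.08, 3.88 and 3.75 in AF2 WT E2, against 3.12, 2.99, 3.13 and 3.23 in AF2 WT placebo. Its change of 0.78 ± 0.08 in AF2 WT (adjusted p = 4.9e-09) was called although it is 1.71-fold. In MISS KO Nop10 gave 3.88, 3.79, 3.78 and 3.82 with E2, against 3.32, 3.12, 3.07 and 3.13 with placebo, and in MISS WT 3.94, 3.81, 3.75 and 3.97 with E2, against 3.20, 3.07, 3.22 and 3.13 with placebo. Dkc1, the pseudouridine synthase dyskerin, lay between them with 1.19 ± 0.16 in AF2 WT, 1.37 ± 0.16 in MISS KO and 1.45 ± 0.16 in MISS WT.

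Of the 14 tested proteins of the small-subunit processome, the large particle that forms on the 5′ end of the rRNA precursor, 13 rose in AF2 WT, MISS KO and MISS WT. Heatr1, a large scaffold also linked to RNA polymerase I transcription (probe on chromosome 13, 12531103 to 12531160), had 2.17, 2.21 and 2.10 in AF2 KO E2, against 2.26, 2.27, 2.10 and 1.93 in AF2 KO placebo, and 5.06, 5.10, 5.13 and 4.82 in AF2 WT E2, against 2.40, 2.31, 2.45 and 2.25 in AF2 WT placebo. It gave 0.02 ± 0.13 in AF2 KO and rose by 2.67 ± 0.12 in AF2 WT, adjusted p = 2.87e-16. MISS KO had 5.06, 5.0, 4.85 and 4.76 with E2, against 2.47, 2.41, 2.26 and 2.0 with placebo, and MISS WT had 5.18, 5.09, 5.02 and 4.71 with E2, against 2.36, 2.45, 2.13 and 2.01 with placebo. Rrp9, a protein of the U3 snoRNP (probe on chromosome 9, 106386845 to 106387461), had 0.45, 0.37 and 0.32 in AF2 KO E2, against 0.46, 0.52, 0.36 and 0.45 in AF2 KO placebo, and 2.96, 3.17, 3.02 and 3.03 in AF2 WT E2, against 0.68, 0.31, 0.51 and 0.50 in AF2 WT placebo. Its AF2 WT change was 2.55 ± 0.09, adjusted p = 1.73e-18. MISS KO gave 2.99, 2.94, 2.61 and 2.91 with E2, against 0.67, 0.52, 0.50 and 0.60 with placebo, and MISS WT 2.98, 2.93, 2.95 and 2.76 with E2, against 0.55, 0.51, 0.53 and 0.71 with placebo.

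Other processome members followed with smaller changes in AF2 WT. The WD-repeat proteins of its UTP subcomplexes gave 2.29 for Wdr43, 1.96 for Pwp2, 1.93 for Wdr75, 1.22 for Utp15 and 1.15 for Wdr3, all called. Nop14 and its partner Noc4l rose by 1.92 and 1.84, the structural proteins Utp14a and Utp20 by 1.61 and 1.60, Imp4, which binds the U3 snoRNA duplex, by 1.34, and Emg1, a methyltransferase acting on a pseudouridine of the 18S rRNA, by 1.0. Their changes in MISS WT ran from 1.13 for Wdr3 to 2.28 for Wdr43.

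Imp3, a small protein that works beside Imp4 in the Mpp10 complex, was the processome member not called with E2. Its levels (probe on chromosome 9, 56786107 to 56786166) were 4.99, 4.73 and 4.89 in AF2 KO E2, against 4.84, 4.94, 4.69 and 4.33 in AF2 KO placebo, and 4.92, 4.95, 5.11 and 4.50 in AF2 WT E2, against 4.89, 4.71, 4.89 and 4.63 in AF2 WT placebo. MISS KO had 4.90, 4.98, 4.77 and 4.57 with E2, against 5.03, 4.98, 4.98 and 4.63 with placebo, and MISS WT had 5.07, 5.0, 4.95 and 4.65 with E2, against 5.0, 4.94, 4.73 and 4.65 with placebo. All groups overlapped, and the changes were 0.09 ± 0.14 in AF2 WT, −0.10 ± 0.14 in MISS KO and 0.09 ± 0.14 in MISS WT. The direction depended on scaling: in AF2 WT the change was called lower after quantile normalization (−0.36) and in the authors' matrix values (−0.34), and called higher with arrays scaled to their median (0.34).

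The largest changes of the set were in factors of late 40S maturation, all 5 of which rose in AF2 WT, MISS KO and MISS WT. Rrp12, a repeat protein that accompanies pre-ribosomes out of the nucleus (probe on chromosome 19, 41945749 to 41945925), had −3.42, −3.48 and −3.50 in AF2 KO E2, against −3.45, −3.27, −3.45 and −3.50 in AF2 KO placebo. In AF2 WT it had 0.87, 1.03, 0.62 and 0.69 with E2, against −3.07, −3.21, −2.93 and −3.0 with placebo. The change was −0.05 ± 0.12 in AF2 KO and 3.86 ± 0.11 in AF2 WT, 14.5-fold with adjusted p = 2.11e-19. MISS KO had 0.97, 0.94, 0.77 and 0.85 with E2, against −3.13, −3.09, −3.59 and −3.49 with placebo, and MISS WT had 1.03, 1.04, 0.88 and 0.75 with E2, against −3.52, −3.09, −3.46 and −3.48 with placebo. These are changes of 4.21 ± 0.11, or 18.5-fold, in MISS KO and 4.31 ± 0.11, or 19.8-fold, in MISS WT.

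Bysl, or bystin, a core protein of the pre-40S particle (probe on chromosome 17, 47738282 to 47738341), had 0.12, 0.30 and −0.03 in AF2 KO E2, against 0.23, 0.38, 0.37 and 0.50 in AF2 KO placebo, and 3.80, 4.15, 3.86 and 3.60 in AF2 WT E2, against 0.49, 0.22, 0.23 and 0.50 in AF2 WT placebo. It gave −0.24 ± 0.14 in AF2 KO and rose by 3.49 ± 0.13 in AF2 WT, or 11.3-fold (adjusted p = 6.07e-18). The MISS KO arrays had 3.90, 3.95, 3.65 and 3.90 with E2, against 0.45, 0.30, 0.39 and 0.31 with placebo, and MISS WT 4.14, 4.21, 4.05 and 3.96 with E2, against 0.21, 0.86, 0.43 and 0.22 with placebo. The 4 MISS KO E2 arrays lay below the 4 MISS WT E2 arrays, as they did for 5.01% of all genes. The difference was −0.24 ± 0.13, not called (adjusted p = 0.445). Nob1, the endonuclease that makes the final cut at the 3′ end of 18S rRNA (probe on chromosome 8, 109940113 to 109940915), had the smallest change of these 5. Its levels were −1.09, −0.87 and −0.92 in AF2 KO E2, against −0.85, −0.63, −0.76 and −0.81 in AF2 KO placebo, and 0.72, 0.95, 0.77 and 0.81 in AF2 WT E2, against −0.71, −0.69, −0.78 and −0.78 in AF2 WT placebo. MISS KO had 0.81, 0.92, 0.74 and 0.90 with E2, against −0.56, −0.58, −0.83 and −0.58 with placebo, and MISS WT had 1.06, 0.88, 0.97 and 0.84 with E2, against −0.76, −0.73, −0.65 and −0.77 with placebo. In AF2 KO the E2 arrays lay below the placebo arrays, as for 5.14% of all genes, with a change of −0.20 ± 0.08 (adjusted p = 0.197). The change of 1.55 ± 0.08 in AF2 WT was called (adjusted p = 2.6e-15). Ltv1 and Tsr1, which act on the pre-40S particle before it becomes able to translate, rose by 2.69 ± 0.08 and 2.53 ± 0.09 in AF2 WT.

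**Figure D3:**
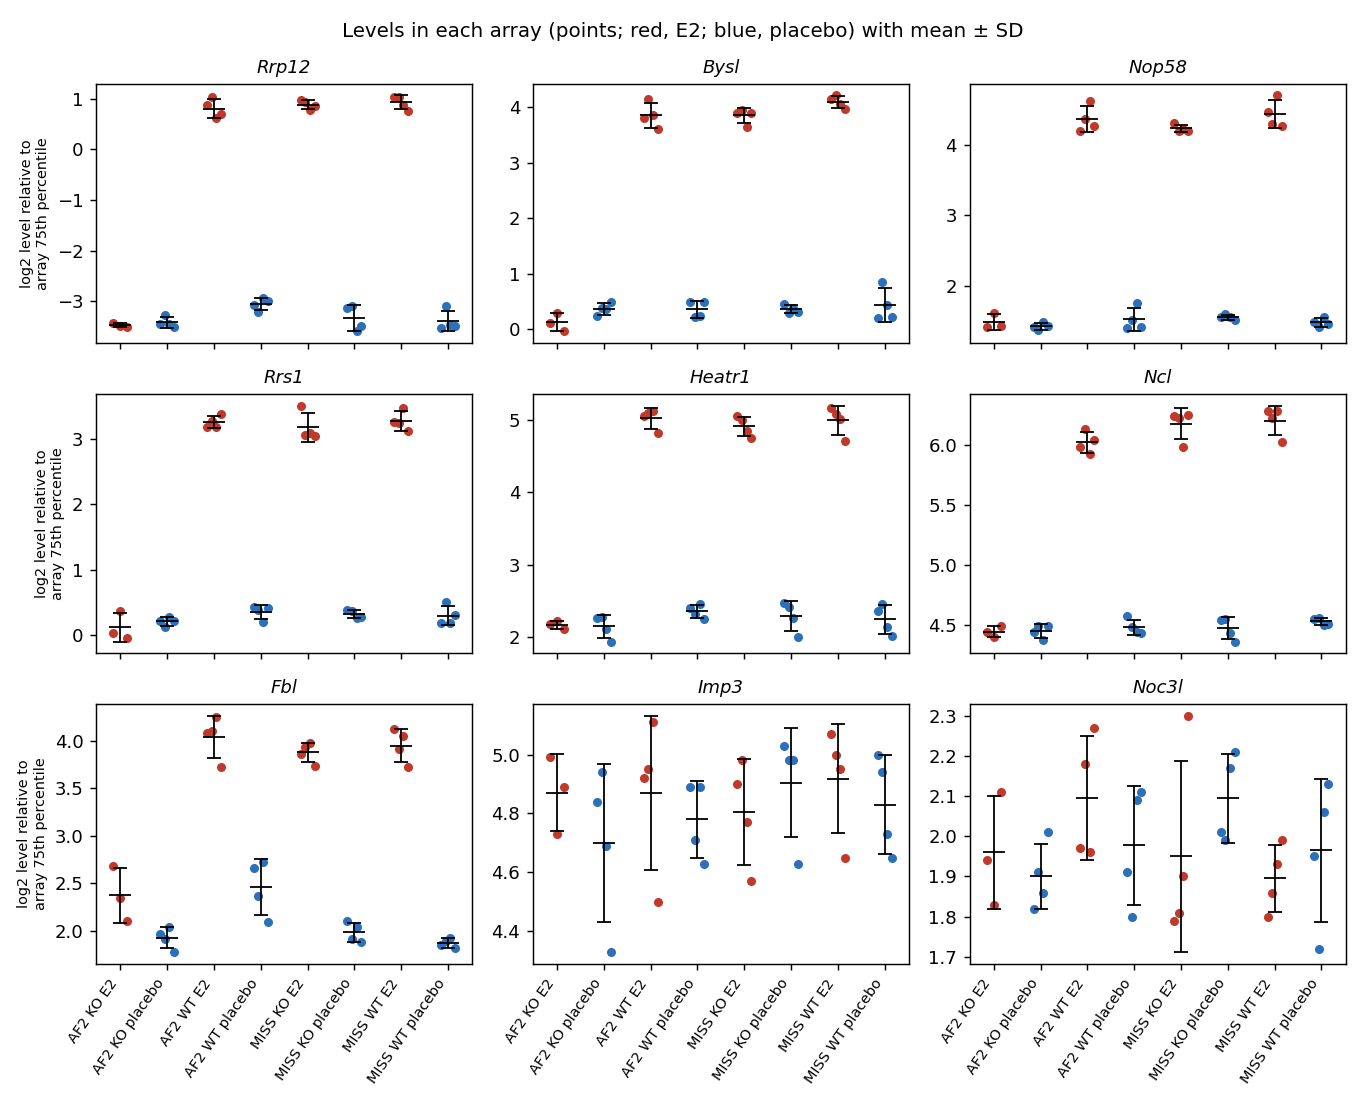
Log2 level relative to the 75th percentile of the array for 9 factors in each of the 8 groups, with 1 point per array (red, E2; blue, placebo) and mean ± SD in black. For Rrp12, Bysl, Nop58, Rrs1, Heatr1 and Ncl the AF2 KO E2 arrays lie at the placebo level and the other E2 groups lie above it, Fbl is slightly higher in AF2 KO E2 than in AF2 KO placebo, and Imp3 and Noc3l overlap in all groups. Axes differ between panels.

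Among the 18 factors of 60S assembly, 17 rose in AF2 WT, MISS KO and MISS WT. Rrs1, which helps to bring 5S RNA into the early 60S particle (probe on chromosome 1, 9537213 to 9537272), had 0.03, 0.37 and −0.04 in AF2 KO E2, against 0.22, 0.12, 0.28 and 0.22 in AF2 KO placebo, and 3.17, 3.27, 3.18 and 3.37 in AF2 WT E2, against 0.43, 0.38, 0.20 and 0.41 in AF2 WT placebo. That is a change of −0.09 ± 0.11 in AF2 KO and 2.90 ± 0.10 in AF2 WT (adjusted p = 5.8e-18). MISS KO had 3.50, 3.06, 3.09 and 3.04 with E2, against 0.38, 0.36, 0.26 and 0.27 with placebo, and MISS WT had 3.25, 3.23, 3.47 and 3.12 with E2, against 0.18, 0.50, 0.19 and 0.31 with placebo. Mrto4, which holds the place of the ribosomal stalk until late in assembly (probe on chromosome 4, 138903422 to 138903481), had 1.44, 1.34 and 1.37 in AF2 KO E2, against 1.28, 1.27, 1.36 and 1.36 in AF2 KO placebo, and 4.20, 4.38, 4.27 and 4.33 in AF2 WT E2, against 1.62, 1.48, 1.72 and 1.49 in AF2 WT placebo. It rose by 2.72 ± 0.07 in AF2 WT (adjusted p = 3.99e-20). The MISS KO arrays gave 4.18, 4.18, 4.03 and 4.23 with E2, against 1.35, 1.23, 1.20 and 1.23 with placebo, and MISS WT 4.37, 4.29, 4.28 and 4.09 with E2, against 1.19, 1.38, 1.24 and 1.35 with placebo.

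The 3 proteins of the PeBoW complex, needed for processing of the 28S and 5.8S precursors, rose by different amounts, with 2.71 ± 0.11 for Bop1, 1.87 ± 0.12 for Wdr12 and 1.49 ± 0.12 for Pes1 in AF2 WT. In MISS KO they gave 2.86, 2.07 and 1.16, and in MISS WT 2.83, 2.13 and 1.52, all called. The rRNA methyltransferases rose as well, Nop2, which makes a 5-methylcytosine, by 2.64, Ftsj3, a 2′-O-methyltransferase, by 2.58, and Rrp8, which makes a 1-methyladenosine, by 1.72 in AF2 WT. Of the nucleolar GTPases, Gnl3 (nucleostemin) rose by 2.50 ± 0.06, Gnl2 by 1.29 ± 0.08 and Gnl3l, a close relative of Gnl3, by 0.70 ± 0.11. Ppan, Nip7, Rrp1b, Ebna1bp2 and Noc2l, further assembly factors of the pre-60S particle, rose by 2.32, 2.17, 2.43, 1.64 and 1.62.

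Nop16, a pre-60S factor (probe on chromosome 13, 54686644 to 54686703), had 0.81, 0.89 and 0.79 in AF2 KO E2, against 1.0, 1.17, 0.75 and 0.81 in AF2 KO placebo, and 2.55, 2.93, 2.32 and 2.46 in AF2 WT E2, against 1.02, 1.05, 0.83 and 0.81 in AF2 WT placebo. It rose by 1.64 ± 0.11 in AF2 WT. In MISS KO it had 2.40, 2.66, 2.28 and 2.28 with E2, against 0.67, 0.77, 0.47 and 0.68 with placebo, and in MISS WT 2.45, 2.39, 2.48 and 2.54 with E2, against 0.53, 0.41, 0.40 and 0.54 with placebo. The placebo arrays of the MISS WT mice lay below those of the AF2 WT mice, as they did for 8.94% of all genes. Noc3l, whose yeast relative joins Noc2 on pre-60S particles, was the 60S factor not called with E2 (probe on chromosome 19, 38863163 to 38863222). It had 1.94, 1.83 and 2.11 in AF2 KO E2, against 1.82, 1.91, 1.86 and 2.01 in AF2 KO placebo, and 1.97, 2.18, 1.96 and 2.27 in AF2 WT E2, against 1.91, 1.80, 2.09 and 2.11 in AF2 WT placebo. MISS KO had 1.79, 1.81, 1.90 and 2.30 with E2, against 2.01, 1.99, 2.17 and 2.21 with placebo, and MISS WT had 1.80, 1.86, 1.93 and 1.99 with E2, against 1.95, 1.72, 2.06 and 2.13 with placebo. The groups overlapped in each genotype, and the changes were 0.11 ± 0.11 in AF2 WT and −0.07 ± 0.11 in MISS WT. Noc3l was called higher in AF2 WT with arrays scaled to their median (0.36), and lower in MISS WT after quantile normalization (−0.34).

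The nucleolar phosphoproteins and chaperones were mixed. Nolc1, a scaffold that gathers snoRNPs and RNA polymerase I (probe on chromosome 19, 46158875 to 46158934), had 1.59, 1.69 and 1.63 in AF2 KO E2, against 1.49, 1.59, 1.41 and 1.43 in AF2 KO placebo, and 4.28, 4.49, 4.45 and 4.34 in AF2 WT E2, against 1.70, 1.80, 1.68 and 1.72 in AF2 WT placebo. It rose by 2.67 ± 0.07 in AF2 WT (adjusted p = 3.99e-20). MISS KO had 4.33, 4.21, 4.05 and 4.22 with E2, against 1.78, 1.76, 1.72 and 1.68 with placebo, and MISS WT had 4.41, 4.31, 4.32 and 4.12 with E2, against 1.73, 1.66, 1.72 and 1.60 with placebo. Ncl, or nucleolin, an abundant RNA-binding protein of the nucleolus (probe on chromosome 1, 88247953 to 88248012), had 4.44, 4.40 and 4.49 in AF2 KO E2, against 4.44, 4.49, 4.37 and 4.49 in AF2 KO placebo, and 5.98, 6.13, 5.92 and 6.04 in AF2 WT E2, against 4.57, 4.48, 4.44 and 4.43 in AF2 WT placebo. It gave −0.01 ± 0.08 in AF2 KO and rose by 1.53 ± 0.07 in AF2 WT (adjusted p = 1.15e-15). In MISS KO it had 6.24, 6.22, 5.98 and 6.25 with E2, against 4.54, 4.55, 4.43 and 4.36 with placebo, and in MISS WT 6.28, 6.22, 6.28 and 6.02 with E2, against 4.55, 4.56, 4.50 and 4.51 with placebo.

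Npm1, the histone and ribosome chaperone nucleophosmin (probe on chromosome 11, 33052849 to 33054041), changed by little. It had 5.76, 5.75 and 5.85 in AF2 KO E2, against 5.70, 5.64, 5.66 and 5.66 in AF2 KO placebo, and 6.10, 6.41, 6.26 and 6.38 in AF2 WT E2, against 5.83, 5.90, 5.89 and 5.85 in AF2 WT placebo. MISS KO had 6.47, 6.29, 6.27 and 6.52 with E2, against 5.88, 5.88, 5.81 and 5.86 with placebo, and MISS WT had 6.49, 6.46, 6.50 and 6.48 with E2, against 6.04, 5.71, 6.04 and 5.99 with placebo. The change of 0.42 ± 0.08 in AF2 WT was called (adjusted p = 3.5e-05) but was 0.18 and not called in the authors' matrix values (adjusted p = 0.14). Its 5 probes disagreed in size: 4 gave 0.33 to 0.44 in AF2 WT and 1 gave 1.53 ± 0.11 (SE), so the Npm1 change is uncertain. Ebna1bp2 was another such gene, with 0.78 for 1 probe and 1.64 and 1.66 for the others. Smaller gaps between probes were also found, such as 2.67 and 2.16 for Nolc1 and 2.17 and 1.72 for Nip7. The probes of a gene had the same direction in AF2 WT for 12 of 12 members with several tested probes.

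Npm3, a relative of nucleophosmin, was dim and moved with the slide. Its levels (probe on chromosome 19, 45822272 to 45822331) were −5.01, −4.37, −2.82 and −2.60 in AF2 WT E2, against −5.38, −5.77, −4.17 and −3.78 in AF2 WT placebo, with the higher values of each group on slides 3 and 4. Within slides the AF2 WT change was 0.38, 1.39, 1.34 and 1.18, positive in 4 of 4, and the change was 1.07 ± 0.79 without the slide in the model and not called. With slide as a block it was called higher with E2 in AF2 WT (1.07, adjusted p = 0.00186), in MISS KO (1.69, adjusted p = 1.32e-05) and in MISS WT (1.53, adjusted p = 4.52e-05), besides AF2 KO. In the same model it was lower in AF2 KO than in AF2 WT, with −1.29 under E2 (adjusted p = 0.000824) and −1.30 under placebo (adjusted p = 0.00217). Npm3 levels were −5.60, −4.23 and −4.15 in AF2 KO E2, against −6.96, −8.17, −4.84 and −4.31 in AF2 KO placebo. The lowest of these lies within the −8.37 to −7.17 of the untested Utp18 in AF2 KO placebo. The Npm3 calls that involve AF2 KO thus rest partly on values near the floor.

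The response was smaller in AF2 KO than in AF2 WT for 45 of 48 factors by the test of the difference itself, AF2 KO minus AF2 WT of the E2 responses, where 21.7% of all genes were called lower. The median difference was −1.84 on the log2 scale, against 0.24 over all genes, and it was largest for Rrp12 with −3.91 ± 0.17 (SE, adjusted p = 2.18e-15) and Bysl with −3.73 ± 0.18 (adjusted p = 2.04e-14). At the low end, it was −0.29 ± 0.11 for Npm1 (adjusted p = 0.0307), −0.64 ± 0.16 for Gnl3l and −0.67 ± 0.12 for Nop10. The Npm1 difference depended on the probe: of its other probes, 2 gave −0.11 and −0.27, not called, and 2 gave −0.38 and −1.35, called. Imp3, Noc3l and Npm3 were not called, with 0.08, −0.06 and 0.34. Compared under E2 alone, 45 factors were lower in AF2 KO than in AF2 WT (26.0% of all genes were called lower), and every AF2 KO E2 array lay below every AF2 WT E2 array for 45 factors, as it did for 24.5% of all genes. Within slides 1, 3 and 4, which hold all groups, the median difference of the responses was −1.76, −1.75 and −1.78. The AF2 KO placebo and AF2 WT placebo arrays enter several of these comparisons, which are therefore not independent of each other.

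In MISS KO the response of these genes was close in size to that in MISS WT. For the 45 factors that rose in MISS WT, the log2 change in MISS KO was 94.3% of that in MISS WT at the median. It ran from 75.1% for Utp15 to 111% for Noc4l and was under 100% for 39 of the 45. No like share was computed over all genes called higher in MISS WT, and the side of 100% can depend on the probe. For Nip7 the chosen probe gave 1.97 in MISS KO and 2.18 in MISS WT, and the other probe 1.86 and 1.69. Ncl went the other way, with 1.70 and 1.67 for the chosen probe and 1.32 and 1.40 for the other. The difference of the responses, MISS KO minus MISS WT, was called for 0 of 48 factors, where 0.881% of all genes were called in either direction. Its median was −0.13, against −0.07 over all genes, and 41 of the 48 differences were negative, as were 61.4% over all genes. An unadjusted p under 0.05 was found for 3 factors, where 10.9% of all genes had one. The 95% confidence interval of the difference lay within 2-fold of no difference, either way, for 47 of 48 factors, and within 1.5-fold for 41. Over all genes it did so for 71.4% and 37.7%. Npm3 had the widest interval, from −2.14 to 2.46.

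The 3 factors with an unadjusted p under 0.05 were Utp15 with −0.34 ± 0.11 (95% interval −0.56 to −0.12, adjusted p = 0.164), Nop56 with −0.42 ± 0.17 (interval −0.77 to −0.07, adjusted p = 0.344) and Pes1 with −0.36 ± 0.17 (adjusted p = 0.456). The size depended on the probe: other probes of Nop56 gave −0.15 and −0.36, and the other probe of Pes1 gave 0.04, none called. Within the 4 slides the difference for Nop56 was −0.25, −0.62, −0.57 and −0.23, and for Utp15 it was −0.50, −0.51, −0.30 and −0.05, negative in 4 of 4 for each. With slide as a block, 3 factors were called lower, Nop56 at −0.42 (adjusted p = 0.0222), Utp15 at −0.34 (adjusted p = 0.0475) and Pwp2 at −0.42 (adjusted p = 0.0439), where 2.96% of all genes were. Pwp2 gave −0.29, −0.49, −0.70 and −0.19 within slides. Without MISS WT placebo replicate 4, 1 factor was called. Under E2 alone, 0 of 48 factors differed between MISS KO and MISS WT (2.86% of all genes were called in either direction), and 1 had an unadjusted p under 0.05, where 13% of all genes had. That factor was Nop58, with −0.20 ± 0.09 (adjusted p = 0.365).

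**Figure D4:**
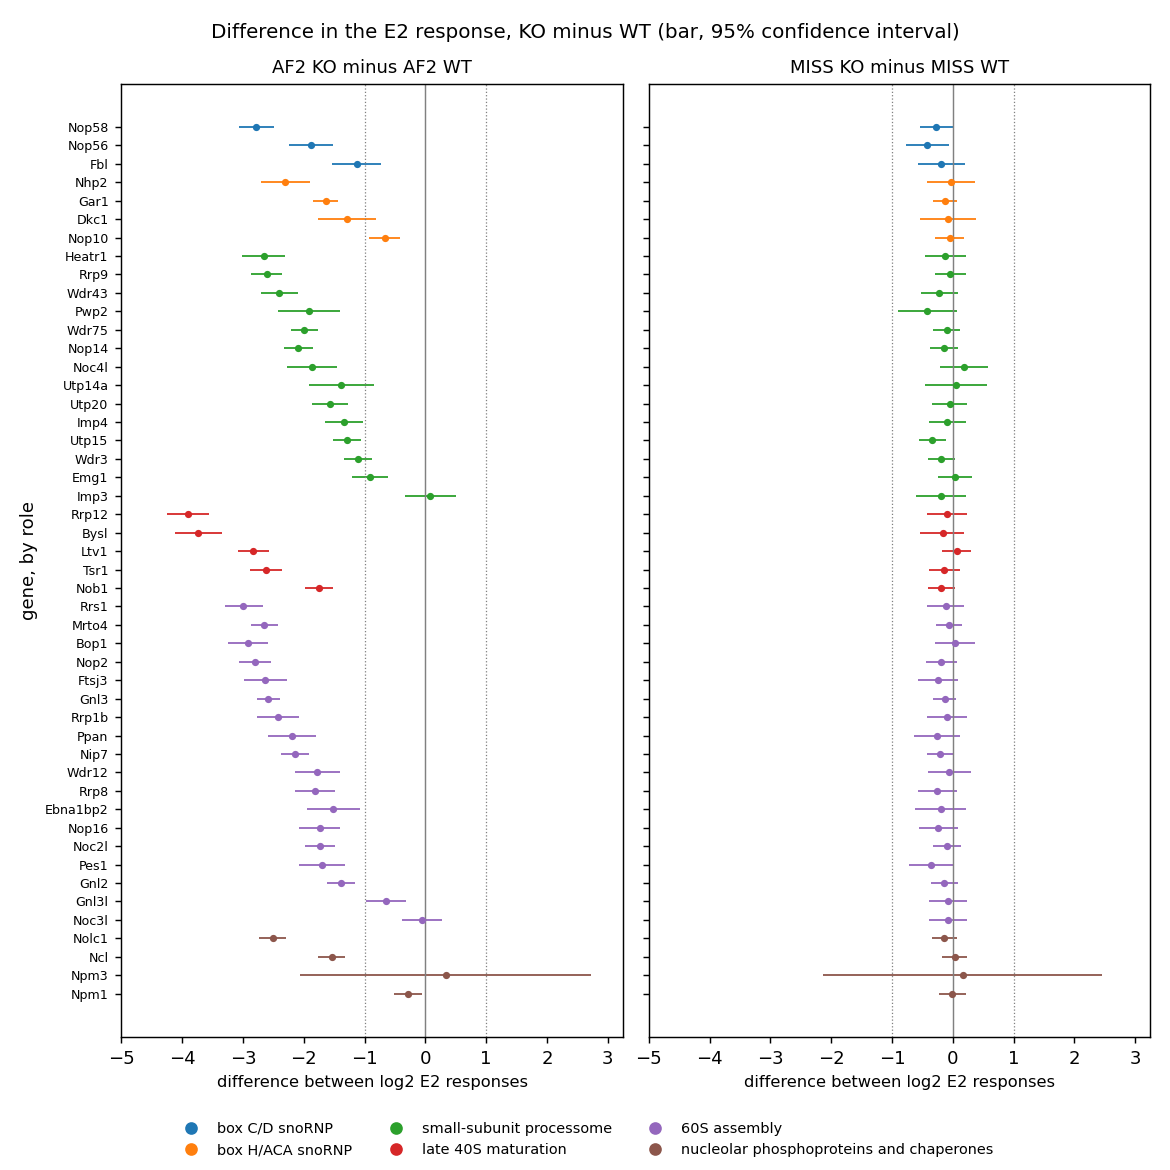
Difference between the log2 E2 responses of KO and WT for the 48 factors, by role, in the AF2 line (left) and the MISS line (right), with bars for the 95% confidence interval and dotted lines at a 2-fold difference either way. In the AF2 line 45 factors were called lower in AF2 KO, down to −3.91 for Rrp12, and in the MISS line they lie between −0.42 and 0.18, with Npm3 the only interval that crosses a dotted line.

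Without E2 the factors differed by little between genotypes. In the AF2 line under placebo, 4 of 48 factors were lower in AF2 KO than in AF2 WT, where 6.61% of all genes were called lower, and 0 were higher. These were Fbl with −0.54 ± 0.13 (adjusted p = 0.00875), Mrto4 with −0.26 ± 0.07 (adjusted p = 0.0226), Nolc1 with −0.25 ± 0.07 (adjusted p = 0.0282) and Rrp12 with −0.36 ± 0.11 (adjusted p = 0.044). With slide as a block 10 were lower, where 15.3% of all genes were, and with only the 8 arrays of these groups in the model 0 were called, where 4.78% of all genes were lower. The count was 1 without AF2 KO placebo replicate 1, AF2 WT placebo replicate 1 or AF2 WT placebo replicate 3, and 2 without AF2 KO placebo replicate 3 or 4. With arrays scaled to their median, Mrto4 gave −0.05 and Nolc1 −0.04, not called, and the median over the factors was 0.12, in place of −0.09. Under that scaling Fbl was called lower (−0.33) and Nop14 (0.27) and Noc4l (0.47) higher, where 3.95% of all genes were lower and 13.2% higher. Markers of epithelium were higher in AF2 KO placebo than in AF2 WT placebo for 5 of 12 genes, as were 807 of all 26900 genes. The mean levels of these markers per array were 2.65 to 2.70 against 2.09 to 2.24, and their part in these differences was not tested. In the MISS line under placebo 0 of 48 factors differed, where 0.918% of all genes were called in either direction, and 1 had an unadjusted p under 0.05, where 11.3% of all genes had. That was Utp15, with 0.24 ± 0.08 (adjusted p = 0.157), and with slide as a block Pwp2 was called, at 0.32, where 1.78% of all genes were called higher.

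The wild types of the lines, which differ in background strain, gave closely similar changes. Across the 48 factors the log2 changes in MISS WT and AF2 WT had a Pearson correlation of 0.97 and a Spearman correlation of 0.96, and across all genes 0.84 and 0.81. These are descriptions across genes, which share arrays and are not independent replicates. The change was larger in MISS WT for 32 of the 48. The difference of the responses, MISS WT minus AF2 WT, was called for 0 factors, where 9.45% of all genes were called in either direction, and 8 had an unadjusted p under 0.05, where 23.1% of all genes had. The largest were Fbl with 0.50 ± 0.19 (adjusted p = 0.0913), Rrp12 with 0.45 ± 0.16 (adjusted p = 0.0792) and Rrp1b with −0.43 ± 0.16 (adjusted p = 0.0946). With slide as a block 8 were called, 7 larger in MISS WT and 1 smaller, where 14.8% and 6.12% of all genes were. Without AF2 WT E2 replicate 2 the count was 2, and it was 1 without AF2 WT placebo replicate 2 or 4, MISS KO placebo replicate 2 or MISS WT placebo replicate 2. Under placebo, 4 factors were lower in MISS WT than in AF2 WT, where 8.96% of all genes were called lower. They were Fbl with −0.59 ± 0.13 (adjusted p = 0.00319), Nop16 with −0.46 ± 0.11 (adjusted p = 0.00644), Gar1 with −0.32 ± 0.07 (adjusted p = 0.00212) and Mrto4 with −0.29 ± 0.07 (adjusted p = 0.00924). With slide as a block 5 were called lower, the fifth being Rrp12 with −0.33 (adjusted p = 0.0134), and Imp4 was called higher with 0.25 (adjusted p = 0.0092), where 15.4% of all genes were lower and 5.65% higher. With arrays scaled to their median, Fbl was called lower (−0.44) and Imp4 (0.40), Nop14 (0.29) and Gnl3l (0.38) higher, where 6.30% of all genes were lower and 8.38% higher. With only the arrays of these groups in the model, Nop16 was called and the other 3 were not, where 4.47% of all genes were called lower. Lymphocyte markers were higher in MISS WT placebo than in AF2 WT placebo for 4 of 7 genes, as were 769 of all 26900 genes. The median difference of these markers was 0.80, with mean levels per array of −2.01 to −0.36 against −2.31 to −1.92. Adipocyte markers had a median difference of 1.53, with 5 of 5 positive and 0 called, and mean levels of −1.06 to 1.75 against −1.88 to 0.71. The part of these markers in the differences was not tested. Line, strain and colony cannot be told apart here.

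**Figure D5:**
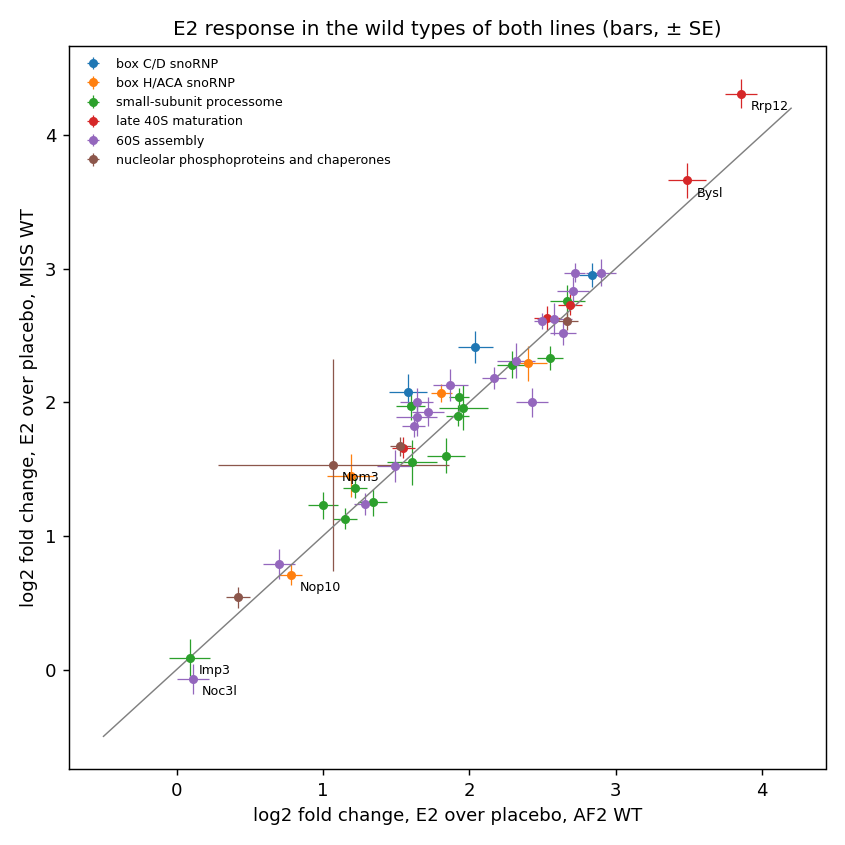
Log2 fold change with E2 over placebo in MISS WT (vertical axis) against AF2 WT (horizontal axis) for the 48 factors, coloured by role, with bars for ± SE and a line of equality. The points follow the line from Imp3 and Noc3l near 0 to Rrp12 at 3.86 and 4.31, and Npm3 has the widest bars.

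Further genes of the pathway behaved much as the 49 did. Of all genes, 4.00% were called in either direction in AF2 KO, and 26.7%, 28.9% and 33.6% were called higher in AF2 WT, MISS KO and MISS WT. Of 69 tested other ribosome biogenesis factors, 0 were called in AF2 KO, with a median of 0.02, and 65 rose and 2 fell in AF2 WT, with a median of 1.36. The largest changes in AF2 WT were in Ddx21, a nucleolar RNA helicase, with 3.13 ± 0.11, Pno1, a pre-40S protein that partners Nob1, with 2.77 ± 0.08, and Mak16, a pre-60S factor, with 2.75 ± 0.13. At the other end, Nsa2, a pre-60S factor, fell with −0.43 ± 0.08 (adjusted p = 6.38e-05), and Xpo1, the nuclear export receptor, gave −0.39 ± 0.17 and was not called. The other factor that fell was Nufip1, a snoRNP assembly factor, with −0.36 ± 0.11 (adjusted p = 0.00461). In MISS KO 63 rose and 2 fell, in MISS WT 66 rose and 2 fell, and the difference between these responses was called for 0 of 69.

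The RNA exosome, which trims the ends of rRNA precursors, had 0 of 14 genes called in AF2 KO, and 11 higher in AF2 WT and 0 lower, with a median of 0.78. Exosc6, Exosc1 and Dis3 led with 2.29 ± 0.10, 1.54 ± 0.23 and 1.47 ± 0.13, and Exosc2 and C1d gave −0.01 ± 0.15 and −0.22 ± 0.11, neither called. Of RNA polymerase I and its factors, 12 of 14 rose in AF2 WT and 0 fell, with a median of 0.95, led by Cd3eap with 2.26 ± 0.14, Polr1e with 2.25 ± 0.11 and Polr1b with 1.76 ± 0.20, all of them subunits of the enzyme. The smallest changes were 0.04 ± 0.13 for Ubtf, the factor that opens rRNA genes, and −0.16 ± 0.21 for Taf1b, neither called. Ubtf was the gene of these lists that was called in AF2 KO, at 0.59 ± 0.14 (adjusted p = 0.0135), and it rose in MISS KO by 0.71 ± 0.13 and in MISS WT by 0.68 ± 0.13.

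Genes of the Myc network, whose proteins bind E-boxes and are known to drive ribosome biogenesis genes in many cell types, went both ways: 4 of 11 rose and 4 fell in AF2 WT. Of all 26900 genes, 7175, or 26.7%, rose and 8384 fell there, so the counts of this list are near those shares. Myc itself gave 0.18 ± 0.11 in AF2 KO (adjusted p = 0.4) and rose by 1.16 ± 0.10 in AF2 WT (adjusted p = 1.07e-10), by 1.76 ± 0.10 in MISS KO and by 1.65 ± 0.10 in MISS WT. Mycn and Mlx, another gene of the network list, rose by 1.66 ± 0.24 and 1.13 ± 0.12 in AF2 WT. The Myc antagonists Mxi1 and Mxd4 gave −0.19 ± 0.33 and −0.33 ± 0.15 in AF2 KO, not called, and fell in AF2 WT, with −3.53 ± 0.31 and −1.27 ± 0.14. The difference of the responses, AF2 KO minus AF2 WT, was −0.98 ± 0.15 for Myc (adjusted p = 3.12e-06) and 3.34 ± 0.46 for Mxi1 (adjusted p = 9.1e-07).

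The lists of cell type markers did not move in one direction. Of all 26900 genes, 953, 7175, 7777 and 9031 were called higher with E2 in AF2 KO, AF2 WT, MISS KO and MISS WT. Those called lower were 122, 8384, 7640 and 7567. Several counts below, such as those of endothelial markers, are near these shares. With E2 in AF2 KO, 3 of 11 stroma markers fell, with means of 4.15 to 4.41 with E2, against 4.56 to 4.92 with placebo. In AF2 WT, 9 of 11 stroma markers fell and 1 rose, with a median of −0.79, and their mean level per array was 3.53 to 3.84 with E2, against 4.39 to 4.70 with placebo. In MISS KO 5 fell and 1 rose, with means of 3.84 to 4.30 against 4.19 to 4.51, and in MISS WT 4 fell and 1 rose, with means of 3.90 to 4.22 against 4.24 to 4.71. Epithelial markers had medians of 0.13 in AF2 KO, 0.26 in AF2 WT, 0.31 in MISS KO and 0.21 in MISS WT, with 0, 5, 6 and 5 of 12 called higher and 0, 1, 3 and 3 called lower. Granulocyte markers had a mean level of −0.20 to 0.51 in AF2 WT E2, against −0.79 to −0.31 in AF2 WT placebo, and 2 of 5 were called higher. In MISS KO and MISS WT 2 of 5 were called higher too, with medians of 1.48 and 0.50, and in AF2 KO 0 were, with a median of 0.43. Macrophage markers were lower with E2 for 0 of 6 genes in AF2 KO and 4 of 6 in AF2 WT, where 1 was higher in each, and the AF2 WT means of 1.37 to 1.65 with E2 lay below the 1.90 to 2.19 with placebo. They were lower for 3 of 6 in MISS KO, where 1 was higher, and for 3 of 6 in MISS WT. Smooth muscle markers were called higher for 0 of 8 in AF2 KO, 0 in AF2 WT, 4 in MISS KO and 5 in MISS WT, and lower for 0, 1, 1 and 1. Their means in MISS WT were 5.75 to 6.15 with E2, against 5.10 to 6.41 with placebo, which overlap. Lymphocyte markers were lower for 0 of 7 in AF2 KO, 1 in AF2 WT, 2 in MISS KO and 4 in MISS WT, with 0 higher. In MISS WT their means were −2.43 to −2.23 with E2, against −2.01 to −0.36 with placebo. Endothelial markers went both ways, with 0 of 8 called in AF2 KO and 3 higher and 2 or 3 lower in the other genotypes, and of 5 adipocyte markers 1 was called, lower in MISS WT. The part of these shifts in the changes of the 48 factors was not tested.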

How the data were processed

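Total RNA of mouse uterus was hybridised to 1-colour (Cy3) Agilent arrays, 31 in 8 groups of 3 or 4, grouped by the labels' genotype and treatment. The processed signal is an intensity that the authors obtained with Agilent Feature Extraction 10.10.1.1, background-subtracted and detrended, with no scaling between arrays, per the file headers. Per the file headers, other values mark outlier spots, saturation and signal well above background with 0 or 1. The series matrix that the authors deposited holds log2 values of 43753 probes, with columns of equal median (7.56). Its columns had correlations of at least 0.999 with the log2 median spot signal of their own arrays, taken before background subtraction. They were not correlated with the processed signal, and the scale of the matrix beyond that is not given in the sources used here. The submitters' processing notes also name limma.

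Outlier spots were left out, spots of a probe averaged as log2, and the 75th percentile of each array subtracted. Probes (40336) that were well above background in all arrays of 1 or more groups were kept, and the brightest per gene name tested (26900 genes, mm9 probe positions of the file). limma 3.58.1 (R 4.3.3, lmFit and eBayes) fitted 8 group means, with 23 residual degrees of freedom and a prior of 2.38, and Benjamini-Hochberg adjustment. The script was tested on simulated data. Alternatives were normexp, quantile normalization, median scaling, no filter on dim probes, mean of probes, slide as a block, values within slides, matrix values, arrays of the compared groups only, and leaving out each array.

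The 49 genes, the gene lists and the tests were chosen with earlier results of these data known, and the direction of the response in AF2 WT and AF2 KO was among them. Any of the 49 may be named. Values of every array are given for the 2 largest and the smallest change in AF2 WT per role, and for up to 3 genes called between genotypes or lines, of other lists the 3 largest and 2 smallest changes and Myc, and of the rest values that a count turns on, chosen after they were seen. Promoters are those of up to 5 genes with the largest change.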

Additional observations from a re-analysis of the deposited data

Results flagged for a closer look

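The difference between the E2 responses of AF2 KO and AF2 WT, tested as such in limma, was called for 45 of 48 factors. Among the factors described array by array it was −3.91 for Rrp12, −3.73 for Bysl, −2.99 for Rrs1, −2.78 for Nop58, −2.66 for Heatr1, −2.65 for Mrto4, −2.61 for Rrp9, −2.51 for Nolc1 and −2.30 for Nhp2. It was −1.88 for Nop56, −1.75 for Nob1, −1.74 for Nop16, −1.64 for Gar1, −1.54 for Ncl, −1.13 for Fbl, −0.67 for Nop10 and −0.29 for Npm1.

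In 7 of 140 sets of 4 arrays, each a factor or the mean of the factors in 1 group, 1 array lay far from the rest by the gap test of Dixon, which flags about 1 in 20 sets by chance. These were Rrs1 in MISS KO E2 replicate 1 with 3.50 (others 3.04 to 3.09), Bysl and Ncl in MISS KO E2 replicate 3 with 3.65 (others 3.90 to 3.95) and 5.98 (others 6.22 to 6.25), Imp3 in MISS KO placebo replicate 4 with 4.63 (others 4.98 to 5.03) and Nob1 in MISS KO placebo replicate 3 with −0.83 (others −0.58 to −0.56). Rrp12 and Npm1 in MISS WT placebo replicate 2 had −3.09 (others −3.52 to −3.46) and 5.71 (others 5.99 to 6.04).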

How the results depend on the processing

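No paired analysis was possible because the numbering of replicates was taken from deposition order and matches no mice across groups, so the slide was used as the block instead. The counts of factors called with E2 in AF2 WT, MISS WT and MISS KO, and lower in AF2 KO than in AF2 WT under E2 or in the response, stayed within 1.5 times their main values under every alternative. With normexp background correction 1 factor was called in AF2 KO and 1 in the difference between wild-type responses. Quantile normalization and the authors' matrix values each gave 1 in AF2 KO. Scaling to the array median gave 7 in AF2 KO, all lower (7.05% of all genes were). It gave 2 in the difference between wild-type responses, both lower (5.98% of all genes were). The mean of all probes gave 1 in that difference. Slide as a block gave 2 higher in AF2 KO (9.05% of all genes were), 3 lower in the MISS difference (2.96%) and 10 lower in AF2 placebo (15.3%). It gave 1 higher in MISS placebo (1.78%). In the difference between wild-type responses it gave 8, 7 higher (14.8%) and 1 lower (6.12%). In the placebo comparison of wild types it gave 6, 5 lower (15.4%) and 1 higher (5.65%). With only the arrays of the groups compared, AF2 placebo gave 0, where 4.78% of all genes were lower. The placebo comparison of wild types then gave 1 lower, where 4.47% of all genes were. The cause of these shifts in counts was not tested. Shares of all genes are not given here for normexp, quantile normalization, matrix values, the mean of probes or arrays left out.

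Leaving out 1 array at a time gave 0 to 1 factors called in AF2 KO, 1 to 5 in AF2 placebo, 0 to 2 in the difference between wild-type responses, 3 to 5 in the placebo comparison of wild types, 0 to 1 in the MISS difference, 0 to 1 in MISS placebo, 44 to 45 in the AF2 difference and 45 to 46 in MISS KO. The 1 in MISS placebo came without MISS WT placebo replicate 4.

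Imp3 reversed in AF2 WT after quantile normalization (−0.36) and in the matrix values (−0.34), and in MISS WT with −0.47 and −0.44. The median of the factors reversed in the placebo comparison of wild types with quantile normalization (0.00), median scaling (0.13), matrix values (0.01) and within slide 4 (0.01), and in AF2 placebo with median scaling (0.12). The median in AF2 WT was 1.61 with matrix values and 2.11 with median scaling, against 1.86, where that scaling put the median of all genes at 0.15, against −0.09. The number of arrays, 3 or 4 a group, limits how small a difference can be called.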
